A study of Mus musculus with 20 samples.

Results

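The HOX cluster genes are described here, the homeobox transcription factor genes of the HOX A, B, C and D clusters, in cultures of primary mouse embryonic fibroblasts (MEFs) measured on Affymetrix arrays. A gene was a member if a probe set (the group of probes that reports a transcript) carried 1 gene symbol in the platform annotation and that symbol was Hoxa, Hoxb, Hoxc or Hoxd with a number. This gave 31 HOX genes among 12393 genes, 9 in cluster A on chromosome 6, 9 in cluster B on chromosome 11, 6 in cluster C on chromosome 15 and 7 in cluster D on chromosome 2. The choice used no signal. For each gene the brightest such probe set was taken, and 5 of the 31 genes (Hoxa3, Hoxa4, Hoxa9, Hoxb4 and Hoxc6) had more than 1. Other HOX genes are not analysed here.

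The study compared MEFs that lack the transcription factor E2F4 with wild type MEFs, all prepared 13.5 days post coitum (dpc). It used 10 cultures of 3 wild type embryos (3, 3 and 4 cultures) and 10 cultures of 5 E2F4 null embryos (2 cultures each), with 1 array per culture. The groups differed in the E2f4 genotype alone as far as the labels say. The labels do not give the part of E2f4 that was removed, nor sex, litter, strain or passage. Cultures of an embryo share their source, so the embryo was the replicate for genotype, and cultures were replicates only for differences between embryos.

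HOX genes stand in the same order along each cluster, and genes of the same number in different clusters, called a paralog group, descend from a common ancestor. Low-numbered genes lie at the 3′ end of a cluster and are used from anterior levels of the embryo onward, while high-numbered genes lie at the 5′ end and mark posterior levels and the distal limb. Their products bind DNA with cofactors of the TALE class (PBX, MEIS and PREP proteins), and Polycomb and trithorax proteins keep each gene silent or active in a cell lineage. Fibroblasts keep such a HOX code in culture and thereby record the body region they came from. In MEFs, which are grown from much of the embryo's body, the code is a mixture over regions. In such bulk cultures, fewer cells that express a gene and less RNA per cell cannot be told apart.

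The 250 bases upstream of the start site are shown for 3 genes that differed between the embryos of both genotypes, Hoxa3 and Hoxa5 in one order and Hoxd13 in nearly the opposite order. Sequences are from RefSeq, build GRCm38.p6, written 5′ to 3′ on the gene's strand, with Hoxa3 at chr6:52213068-52213317 (minus strand), Hoxa5 at chr6:52204588-52204837 (minus) and Hoxd13 at chr2:74667975-74668224 (plus). Capitals mark matches to motifs that were searched on both strands. They are a MEIS motif in Hoxa3, a CCAAT box on the opposite strand in Hoxa5, and in Hoxd13 a CCAAT box and 2 overlapping TATA box matches, 1 on each strand.
Hoxa3: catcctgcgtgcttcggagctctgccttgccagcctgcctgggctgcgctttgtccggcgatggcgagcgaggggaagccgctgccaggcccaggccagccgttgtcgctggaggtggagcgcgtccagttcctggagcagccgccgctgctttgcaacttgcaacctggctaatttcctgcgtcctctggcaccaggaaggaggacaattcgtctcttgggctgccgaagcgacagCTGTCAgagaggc
Hoxa5: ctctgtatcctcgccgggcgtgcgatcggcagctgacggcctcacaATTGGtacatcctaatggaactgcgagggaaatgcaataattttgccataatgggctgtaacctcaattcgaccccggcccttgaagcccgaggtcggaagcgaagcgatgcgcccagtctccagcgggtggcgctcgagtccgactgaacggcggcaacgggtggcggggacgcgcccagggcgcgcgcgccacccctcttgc
Hoxd13: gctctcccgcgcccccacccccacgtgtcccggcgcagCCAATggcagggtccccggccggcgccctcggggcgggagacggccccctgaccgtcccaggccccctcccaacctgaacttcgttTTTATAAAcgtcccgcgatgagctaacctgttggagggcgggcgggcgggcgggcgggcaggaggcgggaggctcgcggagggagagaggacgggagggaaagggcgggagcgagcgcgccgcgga

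RefSeq windows from 250 bases before to 50 after a start were at hand for 18 of the 31 HOX genes, as 20 windows of 300 bases among 32851. HOX windows had a median GC content of 58.6% (45.7 to 81.0%) against 52.7% over all windows, and a median of 14.5 CpG dinucleotides (4 to 45) against 7. The CCAAT box (CCAAT) was found in 11 of 20 HOX windows (55%) and in 37.41% of all windows. The TATA box (TATAAA) was found in 2 (10%, Hoxa10 and Hoxd13) against 13.62%, and the CDX motif (TTTATG) in 2 (10%, Hoxa7 and Hoxd11) against 11.85%. A HOX-PBX motif (TGATNNAT) was found in 3 (15%, Hoxa2, Hoxb1 and Hoxd11) against 8.85%, and the MEIS motif (TGACAG) in 2 (10%, Hoxa2 and Hoxa3) against 19.18%. The E2F motif, searched as TTTCGCGC, TTTGGCGC, TTTCCCGC and TTTGCCGC, was found in 0 of 20 HOX windows and in 2.26% of all windows. These are matches of letters and show no binding.

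Signals were on a linear scale that had been set to a common average on every array, and median signals ran from 135 to 146. The 3′ to 5′ signal ratio, a measure of RNA integrity, was even, at 0.685 to 0.764 for Gapdh and 1.10 to 1.25 for b-Actin. All 10 fibroblast markers were above background in every embryo. On 2 arrays, wild type embryo 2 culture 1 and null embryo 4 culture 2, the control probe sets stood apart (SD of their log2 deviations 0.672 and 0.575, against 0.142 to 0.389 on the other 18), and counts are given with and without both. The targeted gene E2f4 read 209, 212 and 222 in the wild type embryos and 155 to 197 in the null embryos. The E2f4 groups did not overlap, but its difference (-0.35, SE 0.10, on the log2 scale) had a limma adjusted p = 0.363.

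In order to determine which HOX genes the cells expressed, each embryo's mean signal was set against background, taken as the 95th percentile of the embryo means of 61 genes specific to other tissues. This background was 65.0, while the median of those genes was 15.5. In every one of the 8 embryos, 9 of 31 HOX genes (Hoxa9, Hoxa10, Hoxa11, Hoxb2, Hoxb6, Hoxc6, Hoxc8, Hoxd8 and Hoxd13) lay above background, against 59% of all genes. Another 10 were above it in some embryos, and 12 were above it in none, against 33.6% of all genes. Signals of different probe sets are not comparable, so a gene's own order over embryos is given below and no order between genes.

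By position, 1 of the 6 anterior genes (paralog groups 1 to 3) was above background in every embryo, 2 in some and 3 in none. Of the 12 central genes (groups 4 to 8), 4 were above in every embryo, 4 in some and 4 in none. Of the 13 posterior genes (groups 9 to 13), 4, 4 and 5 fell into these classes. Both measured members of groups 6 (Hoxb6, Hoxc6) and 8 (Hoxc8, Hoxd8), genes of trunk level, were above background everywhere. No measured member of groups 1 (Hoxb1, Hoxd1), 7 (Hoxa7, Hoxb7) or 12 (Hoxd12) was above it in any embryo. Group 13 was divided by the background line. Hoxd13 ran from 65.0 to 292, above background in null embryo 2 by less than the rounding shown. The other members of group 13 stayed below, Hoxa13 at 35.1 to 47.4, Hoxb13 at 2.53 to 20.5 and Hoxc13 at 3.39 to 32.5. Group 9 was divided likewise, with Hoxa9 at 230 to 401 in all embryos, Hoxb9 (55.0 to 108) and Hoxc9 (33.9 to 75.6) on either side of background and Hoxd9 (12.3 to 57.7) below it. Each of these paralogs was read at its own probe set, so whether their RNA levels differed was not tested.

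The number above background in every embryo depended on where the line was drawn. It was 6 with the line at the brightest silent gene but 1 (92.6), 15 with the line at 39.7, after the 3 brightest silent genes were left out, and 16 where only the mean over the 8 embryos had to pass. The genes above background in some embryos (Hoxa3, Hoxc4 and Hoxd10 in 7, Hoxa5 and Hoxd11 in 6, Hoxb3 and Hoxb9 in 5, Hoxb4 in 3, Hoxb5 and Hoxc9 in 2) lay on both sides of the line at 65.0. Of the 9 genes above that line in every embryo, Hoxb6, Hoxd8 and Hoxd13 had an embryo under 92.6, and Hoxa3, Hoxa5, Hoxb9, Hoxc4, Hoxd10 and Hoxd11 joined them at the line of 39.7.

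**Figure D1:**
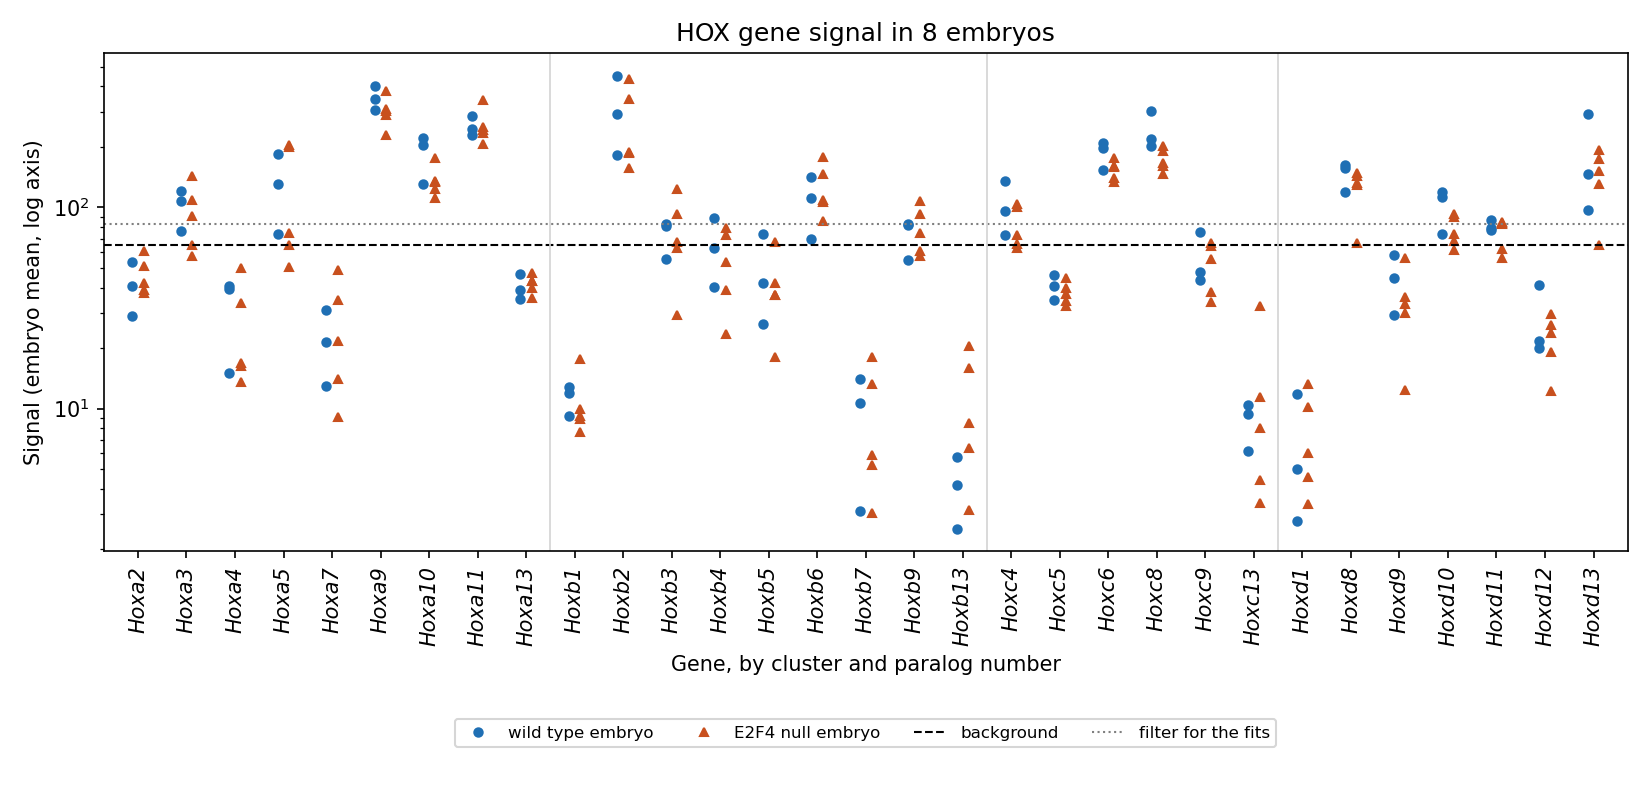
Mean signal of each of the 31 HOX genes in each of 8 embryos, on a log axis, with wild type embryos as circles and E2F4 null embryos as triangles, ordered by cluster and paralog number. The dashed line is background (65.0) and the dotted line the filter used for the tests (83.2). Hoxa9 to Hoxa11, Hoxb2, Hoxc6 and Hoxc8 lie well above the dashed line in all embryos, while Hoxb1, Hoxb7, Hoxb13, Hoxc13 and Hoxd1 lie far below it.

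The clearest feature of the HOX genes was a difference between embryos that ran across genotypes. Hoxa3 and Hoxa5 of cluster A and Hoxb2 to Hoxb6 of cluster B were higher in wild type embryos 1 and 2 and null embryos 1 and 2 than in wild type embryo 3 and null embryos 3, 4 and 5. Hoxb9, a posterior gene of cluster B, and Hoxc4 of cluster C shared this division. Hoxa2, the 3′-most measured gene of cluster A, was below background in all embryos and did not show this division. Hoxd13, at the 5′ end of cluster D, ran in nearly the opposite order. Tests between embryos used the 13 HOX genes whose mean signal passed the filter, 7436 of 12393 genes. The other 18 members were dimmer and are given by their values or ranges.

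In cluster B, Hoxb2, a gene of hindbrain and neck level, read 291, 453 and 183 in wild type embryos 1 to 3. It read 348, 434, 157, 190 and 188 in null embryos 1 to 5. The lowest single culture of the 4 high embryos (259) lay above the highest culture of the 4 low embryos (220). Hoxb2 differed between wild type embryos (limma F test over cultures, F = 59.9, adjusted p = 2.36e-06) and between null embryos (F = 48.7, adjusted p = 1.22e-05). Embryos spanned 2.89-fold, and both calls held in every alternative that kept the gene.

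Hoxb6, a trunk gene, read 112, 142 and 69.8 in wild type embryos and 147, 179, 86.0, 109 and 106 in null embryos. It passed in both genotypes (adjusted p = 0.00354 and 0.0189). Its neighbours Hoxb3, Hoxb4 and Hoxb5 were under the filter but kept a similar order. Hoxb3 read 80.5, 82.8 and 55.6 in wild type embryos and 92.5, 124, 29.2, 67.6 and 62.6 in null embryos. Hoxb4 read 63.0, 88.3 and 40.1, then 73.2, 79.0, 39.0, 53.4 and 23.4. In each of these genes the lowest wild type value was that of embryo 3, and null embryos 1 and 2 were the highest of the null embryos. Hoxb5 (18.0 to 74.1) and Hoxb9 (55.0 to 108) had their highest values in wild type embryo 2 and in null embryo 2, respectively. Hoxb9 read 82.7, 82.2 and 55.0, then 92.7, 108, 60.9, 74.7 and 57.5, the same division of embryos as Hoxb2. Hoxb1, Hoxb7 and Hoxb13 did not exceed 20.5 in any embryo, where no order can be read.

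In cluster A, Hoxa5, a gene of cervical and upper thoracic level, read 131, 184 and 73.6 in wild type embryos. It read 200, 205, 50.4, 64.8 and 75.0 in null embryos, a span of 4.07-fold. As for Hoxb2, the cultures of the 4 high embryos (126 and above) did not overlap those of the 4 low embryos (82.5 and below). Hoxa5 passed between wild type embryos (F = 39.8, adjusted p = 1.83e-05) and between null embryos (F = 30.5, adjusted p = 8.68e-05), also in every alternative that kept the gene. Hoxa3, a gene of pharyngeal arches and neck, read 108, 120 and 76.5, then 109, 143, 57.4, 65.4 and 90.6, and passed in both genotypes (adjusted p = 0.00975 and 0.00310). Hoxa4, below background throughout, read 39.4, 40.5 and 15.1, then 33.5, 50.1, 13.6, 16.3 and 16.9, the same division of embryos. Hoxa2, a hindbrain and second arch gene and also below background, read 28.8, 53.6 and 40.5, then 37.6, 60.9, 42.2, 51.2 and 39.0. Wild type embryo 1 was the lowest and null embryo 1 the next lowest for Hoxa2, unlike in the division seen for Hoxb2. Without a filter, however, Hoxa2 passed between embryos of neither genotype (limma F test adjusted p = 0.1625 in wild type and 0.7186 in null), so its order is uncertain. Hoxa7, below background, read 30.8, 21.3 and 12.9, then 34.8, 48.6, 9.03, 21.6 and 14.0, so that wild type embryo 2 and null embryo 4 were level.

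At the brightest probe set of each gene, the 5′ genes of cluster A did not follow this order. Hoxa9 read 401, 307 and 347 in wild type embryos and 381, 230, 289, 303 and 309 in null embryos. It passed between null embryos (adjusted p = 0.0176) and not between wild type embryos (adjusted p = 0.0503). The dimmer probe set of Hoxa9, also above background in all embryos, did have the Hoxb2 division. It read 154, 146 and 130 in wild type embryos, then 149, 142, 98.7, 101 and 126 in null embryos. Hoxa10, which patterns the lumbar spine and the upper leg, read 221, 131 and 205, then 176, 123, 134, 111 and 135, and passed between wild type embryos only (adjusted p = 0.00245, null 0.197). Hoxa11, a gene of the forearm and lower leg, read 244, 230 and 284, then 341, 235, 251, 206 and 242, and passed in neither (adjusted p = 0.0941 and 0.0874). Whether the spread between embryos differed between the genotypes was not tested.

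In cluster D, Hoxd13, which patterns digits and the hind end of the body, read 147, 96.7 and 292 in wild type embryos. It read 131, 65.0, 173, 153 and 192 in null embryos, a span of 4.50-fold. Its highest embryo, wild type 3, was among the lowest for Hoxb2 and Hoxa5, and its lowest, null embryo 2 and wild type embryo 2, were the highest for Hoxb2. Hoxd13 passed between wild type embryos (F = 37.2, adjusted p = 2.50e-05), here too in every alternative that kept it. It passed between null embryos (F = 13.6, adjusted p = 0.00232), but not without null embryo 2 (F = 2.25, adjusted p = 0.329).

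Hoxd10 and Hoxd11, expressed with Hoxd13 in the limb, were less spread. Hoxd10 read 113, 73.7 and 119, then 89.4, 68.4, 73.9, 61.6 and 92.7, with the low wild type value in embryo 2, and passed between wild type embryos only (adjusted p = 0.0254, null 0.342). Hoxd11 ran from 55.9 in null embryo 2 to 86.9 in wild type embryo 3, and Hoxd12, below background, from 12.2 to 41.0 between the same embryos. Hoxd9, also below background, read 57.7, 29.2 and 44.8, then 55.9, 29.8, 12.3, 33.2 and 35.7. Its lowest embryo was null embryo 3, which was not low for Hoxd13. Hoxd1 did not exceed 13.2. Hoxd8, the 3′-most of the cluster D genes above background, read 163, 119 and 157, then 66.4, 129, 143, 148 and 132. Null embryo 1 was thus the lowest of the 8 embryos for Hoxd8, and for no other cluster D gene, and it was low in both of its cultures (52.7 and 80.1, against 110 to 181 in all other cultures). Hoxd8 passed in both genotypes (adjusted p = 0.0262 and 0.00969), but not between null embryos without null embryo 1 (adjusted p = 0.782).

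In cluster C, wild type embryo 1 was highest at the brightest probe sets of Hoxc4, Hoxc6, Hoxc8 and Hoxc9. Hoxc4 read 136, 96.3 and 73.2 in wild type embryos and 101, 104, 65.8, 73.0 and 62.6 in null embryos, the division seen for Hoxb2. Hoxc8, a thoracic gene, read 303, 219 and 203, then 167, 191, 162, 201 and 147. Hoxc6 read 210, 198 and 153, then 160, 159, 140, 177 and 134. At its next brightest probe set, also above background in all embryos, null embryo 4 was highest (184), with wild type embryos 1 and 2 at 168. Hoxc5 stayed below background at 32.4 to 46.2. Hoxc4, Hoxc8 and Hoxc6 passed between wild type embryos (adjusted p = 0.00218, 0.00241 and 0.0459), and none of them between null embryos (0.126, 0.323 and 0.449).

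**Figure D2:**
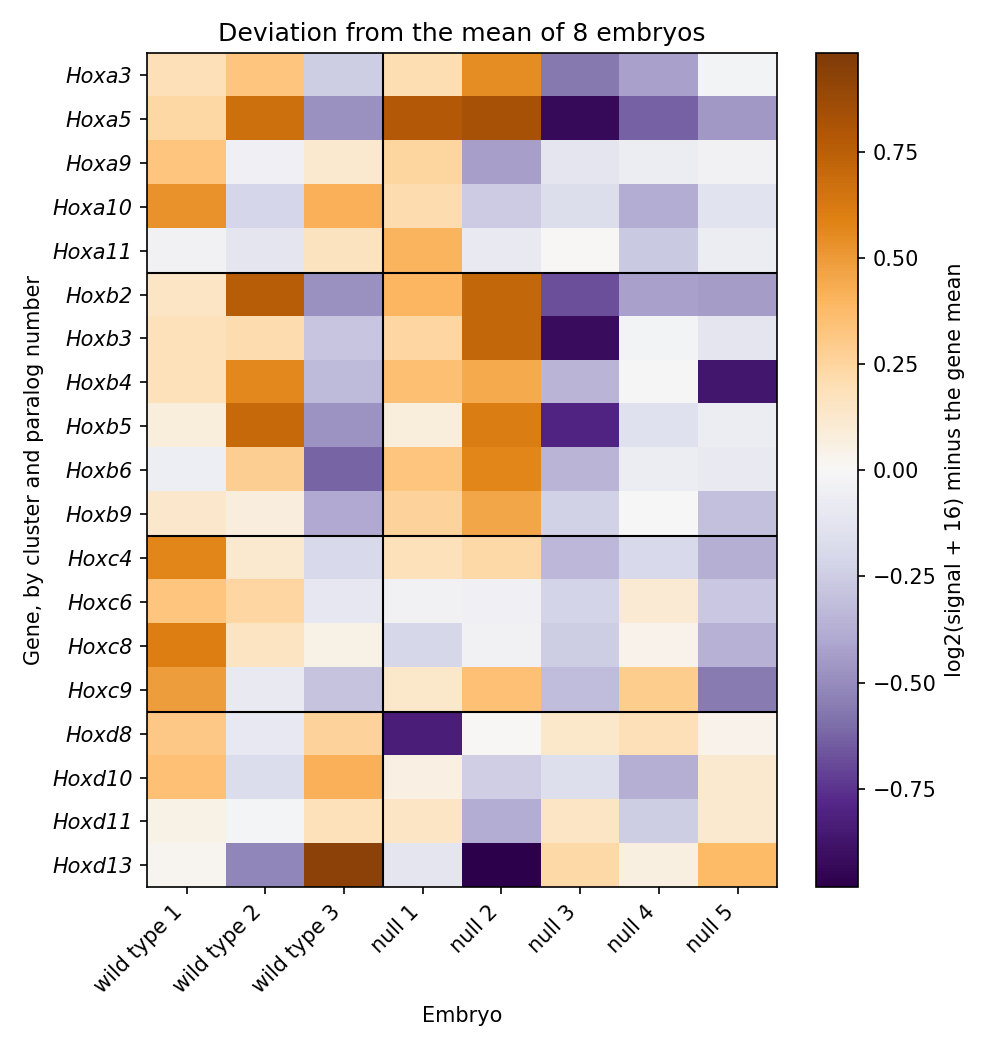
Deviation of each embryo's mean log2(signal + 16) from the gene's mean over 8 embryos, for the 19 HOX genes above background in at least 1 embryo, with clusters A to D from top to bottom. Orange is above and purple below the gene's mean, and the vertical line divides wild type from null embryos. Hoxa3, Hoxa5 and Hoxb2 to Hoxb6 are orange in null embryos 1 and 2 and purple in wild type embryo 3 and null embryo 3, and Hoxd13 has the reverse colours in wild type embryos 2 and 3 and null embryo 2.

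**Figure D3:**
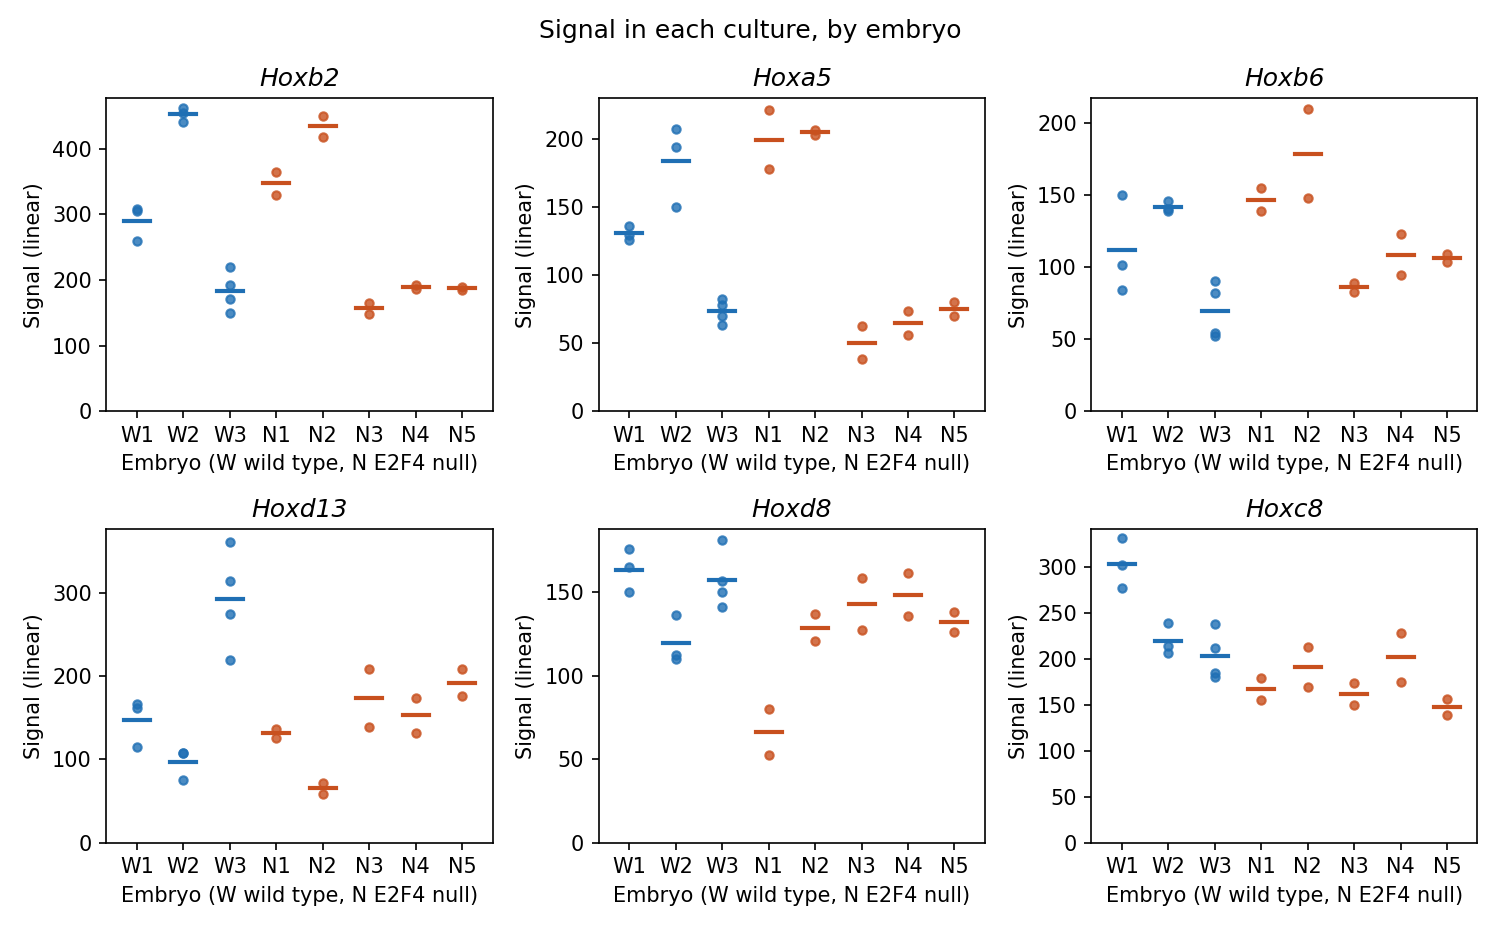
Signal in each culture for Hoxb2, Hoxa5, Hoxb6, Hoxd13, Hoxd8 and Hoxc8, on a linear scale, with wild type embryos 1 to 3 (W) in blue and E2F4 null embryos 1 to 5 (N) in orange. Points are cultures and bars the embryo means. Cultures of an embryo lie close together for Hoxb2 and Hoxa5, while the means of the 8 embryos spread from 157 to 453 and from 50.4 to 205.

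In total, 11 of the 13 HOX genes differed between wild type embryos at an adjusted p under 0.05 (all but Hoxa9 and Hoxa11), against 50.1% of all genes tested. Between null embryos 7 of 13 passed (Hoxa3, Hoxa5, Hoxa9, Hoxb2, Hoxb6, Hoxd8 and Hoxd13), against 22.9%. In both genotypes 6 passed (Hoxa3, Hoxa5, Hoxb2, Hoxb6, Hoxd8 and Hoxd13), against 19.1%. Differences between embryos were thus common among all genes too. Without the 2 arrays whose controls stood apart, 10 and 7 passed. In the fit of all 31 HOX genes without a filter, 11 passed between wild type embryos, with Hoxa4, Hoxb4 and Hoxb5 among them (30.5% of all genes), and 8 between null embryos, with Hoxb4 and Hoxd9 among them (11.2%). In that fit Hoxc6, Hoxd8 and Hoxd10 were lost between wild type embryos (limma F test adjusted p = 0.0857, 0.0574 and 0.0574). Hoxb6 was lost between null embryos (0.0594). Hoxb6 and Hoxd8 thus no longer passed in both genotypes.

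Single embryos carried part of these counts. Without wild type embryo 1, 2 or 3, the wild type count was 8, 5 and 7. Hoxc4, Hoxc6 and Hoxc8 were lost without embryo 1. Hoxa3, Hoxa10, Hoxb6, Hoxc6, Hoxd8 and Hoxd10 were lost without embryo 2, and Hoxa3, Hoxb6, Hoxc4, Hoxc6 and Hoxd10 without embryo 3, where Hoxa9 newly passed. The null count fell to 3 (Hoxa5, Hoxb2 and Hoxd8) without null embryo 2, to 5 without embryo 1 (Hoxa9 and Hoxd8 lost) and to 6 without embryo 3 (Hoxb6 lost).

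The sum of squares over the 20 cultures was then divided among genotype, embryos of a genotype, and cultures of an embryo. For Hoxb2, 94.1% lay between embryos of a genotype, 2.41% between genotypes and 3.49% between cultures. For Hoxa5 the shares were 93.6%, 1.55% and 4.83%, and for Hoxd13 they were 82.6%, 6.53% and 10.8%. Hoxc8 was the only one of the 13 with a larger share between genotypes (44.3%) than between embryos of a genotype (40%). These shares were not adjusted for there being fewer genotypes than embryos and fewer embryos than cultures. A level with more units gains a larger share by that alone, so the levels cannot be compared directly. The median share between embryos of a genotype was 69.4% over the 13 HOX genes and 54.2% over all genes tested.

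**Figure D4:**
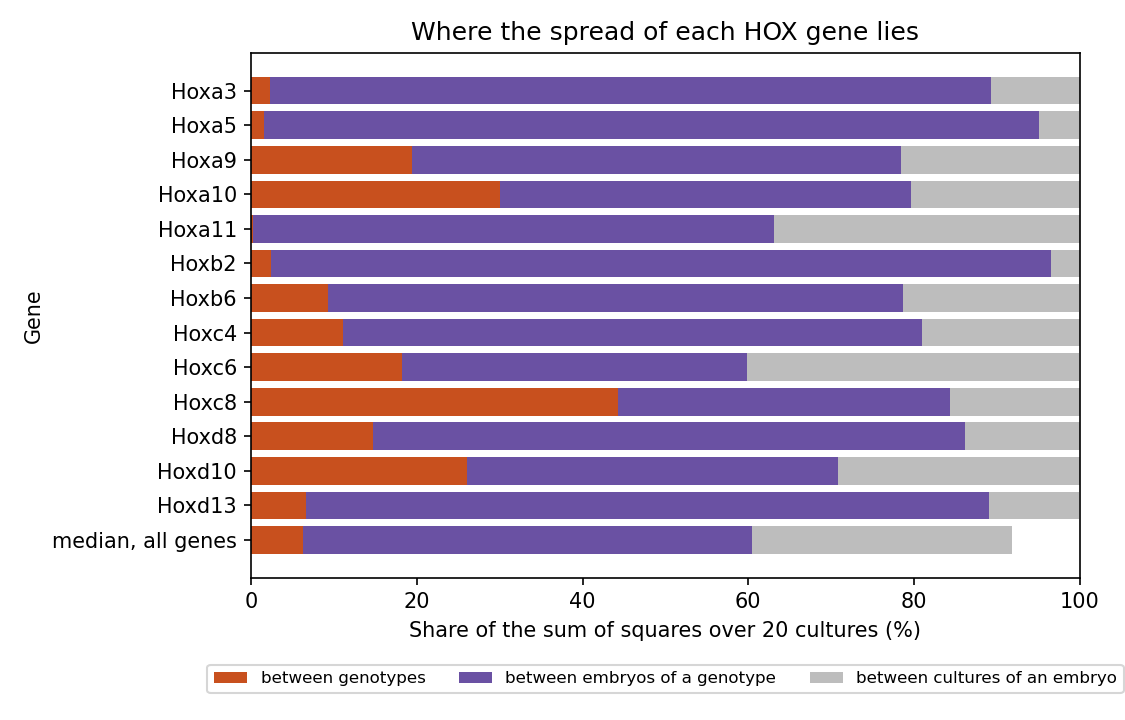
Shares (%) of the sum of squares of log2(signal + 16) over 20 cultures that lay between genotypes, between embryos of a genotype and between cultures of an embryo, for the 13 HOX genes past the filter. The last bar gives the medians of the 3 shares over all genes tested, taken one by one, so it does not reach 100. The middle share exceeds 80% for Hoxa3, Hoxa5, Hoxb2 and Hoxd13.

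Other measures moved between the embryos together with these genes, and their part in the HOX differences was not tested. Scores on the first principal component of all genes tested (41.3% of the variance) were 0.274, 0.179 and 0.122 in wild type embryo 2 and null embryos 2 and 1, and -0.026 in wild type embryo 1. They were -0.174 in wild type embryo 3 and -0.081 to -0.132 in null embryos 3, 4 and 5. Ranked by score, the embryos divided as for Hoxb2, but wild type embryo 1 lay closer to null embryo 3 (-0.081) than to null embryo 1. Of 19 measured genes that pattern limb and body wall, 7 were above background in all embryos, and the summed level of the list was 7158, 5309 and 8816 in wild type embryos and 5141, 5296, 6482, 6569 and 7332 in null embryos. That order resembled the order of Hoxd13, with wild type embryo 3 highest. Prrx1, a limb mesenchyme factor and the brightest contributor, read 4144, 2719 and 5346, then 2959, 3058, 3887, 4049 and 4514. Prrx2 and Tbx15 were also highest in wild type embryo 3. The other genes of the list above background in all embryos did not share this. Shox2 and Tbx3 were highest in wild type embryo 1 and Msx1 in null embryo 5. Msx2 was lowest in wild type embryo 3 (181, 242 and 113, then 242, 166, 160, 159 and 124).

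Markers of cell types were summed in the same way. The sum of the 10 fibroblast markers was 98786.5, 100078 and 95692.2 in wild type embryos. In null embryos it was 98753.8, 103592, 90673.5, 94650.2 and 87257.9, the division seen for Hoxb2. Fn1 shared this division (14420, 16590 and 13530, then 16090, 15630, 11590, 11200 and 11410). Pdgfrb did not (3793, 2812 and 2317, then 3201, 3493, 3411, 3725 and 2970). Of 8 endothelial markers 1, Flt1, was above background in all embryos and 7 in none, and the summed level ran from 328 to 578 in wild type and from 304 to 591 in null embryos. Flt1 read 410, 416 and 227, then 450, 357, 223, 229 and 191, the same division of embryos as Hoxb2, while the defining endothelial marker Pecam1 stayed at 3.51 to 16.2 and Cdh5 at 5.02 to 31.9. The epithelial sum (8 markers, 1 above background in all embryos, 5 in none) was 407, 726 and 379, then 843, 808, 483, 563 and 567. Its keratins moved between embryos, Krt18 at 93.9, 193 and 60.7, then 213, 206, 108, 110 and 103, and Krt7 at 26.5, 128 and 27.5, then 56.0, 113, 25.1, 36.7 and 33.1. Both keratins were high in wild type embryo 2 and null embryos 1 and 2, while Cdh1 was at most 15.4 and Epcam at most 12.8 in any embryo. The skeletal muscle sum (9 markers, 1 above in all, 6 in none) was 282, 473 and 233, then 634, 493, 305, 251 and 337. Des, the muscle marker above background in all embryos, read 136, 271 and 75.4, then 239, 221, 107, 113 and 118, the division seen for Hoxb2, while Myod1 was at most 30.3 and Myog at most 33.2. Neural and glial markers (5 of 12 above in all embryos) summed to 2954 to 3481 in wild type and 2934 to 3743 in null embryos. Within that list Nes, a progenitor filament gene, had the Hoxb2 division (338, 569 and 155, then 730, 731, 298, 334 and 250), while Stmn2 (1168, 789 and 1438, then 934, 611, 1157, 1413 and 1048) was lowest in null embryo 2 and wild type embryo 2. Macrophage markers (8 of 9 above in all embryos) summed to 1708 to 2657 in wild type and 1365 to 4602 in null embryos. Erythroid markers were above background in all embryos in 0 of 5.

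The sex-linked transcript Xist, which is expressed in female cells, read 3070, 37.9 and 2983 in wild type embryos and 2218, 47.1, 30.5, 2299 and 2266 in null embryos. Embryos with high and with low Xist signal were present on both sides of the division seen for Hoxb2 and Hoxa5.

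In order to compare genotypes, embryo means were fitted with limma, and differences are E2F4 null minus wild type on the log2(signal + 16) scale, which understates the change of dim genes. None of the 13 HOX genes passed at an adjusted p under 0.05 (0 called, against 0.0134% of all genes, which is 1 gene, Tmem223). At an unadjusted p under 0.05, 1 HOX gene passed, Hoxc8, against 8.73% of all genes in either direction and 4.75% lower in null embryos. A limma fit over cultures, with embryo taken as a random block, called 0 HOX genes as well, and so did the fit of all 31 HOX genes without a filter (0.00807% of all genes called).

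Hoxc8 signal was 242 ± 53.7 in the wild type embryos (SD, n = 3) and 174 ± 22.1 in the null embryos (n = 5), a difference of -0.43 (SE 0.14, limma adjusted p = 0.429). It was the one HOX gene past the filter whose groups did not overlap, by the narrow margin of 203 in wild type embryo 3 and 201 in null embryo 4. Among all genes, 3.75% had all null embryos under the lowest wild type embryo and 2.92% had them over the highest. Over the alternatives the Hoxc8 difference ran from -0.54 to -0.27 and its adjusted p from 0.193 to 0.883.

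For 12 of the 13 HOX genes the difference was below 0, with a median of -0.23, against 51.1% of genes below 0 and a median of -0.0035 over all genes tested. These genes were read in the same embryos, so their signs are not independent. The median deviation of the 13 genes overlapped between genotypes. It was 0.31, 0.12 and 0.05 in wild type embryos, and 0.20, -0.03, -0.22, -0.20 and -0.09 in null embryos. In the fit without a filter, 22 of all 31 HOX genes were below 0, with a median of -0.14, against 48.2% of all genes. The largest differences after Hoxc8 were Hoxa10 at -0.39 (SE 0.19, limma adjusted p = 0.611) and Hoxd10 at -0.32 (SE 0.17, adjusted p = 0.663). Hoxa10 was 186 ± 48.3 (n = 3) in wild type and 136 ± 24.6 (n = 5) in null embryos, and Hoxd10 102 ± 24.5 and 77.2 ± 13.4, with overlap in both. In cluster C, Hoxc4 differed by -0.26 and Hoxc6 by -0.25 (SE 0.21 and 0.13).

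The SE of a difference between genotypes is computed from the spread between embryos of a genotype, so a wide spread gives a wide SE. Hoxa5 differed by -0.22 (SE 0.46), Hoxb2 by -0.23 (SE 0.37) and Hoxd13 by -0.23 (SE 0.37), so that each interval of 1 SE included 0. Hoxb6 was the 1 gene above 0, at 0.21 (SE 0.25). Hoxa11 was at -0.0042 (SE 0.15), and its sign changed under quantile normalization and median centring. Without wild type embryo 2 Hoxa5 stood at 0.04 and Hoxb2 at 0.08, and without wild type embryo 3 Hoxb6 stood at -0.03 and Hoxd13 at 0.16. Hoxa3 differed by -0.14, Hoxa9 by -0.21 and Hoxd8 by -0.25 (SE 0.26, 0.15 and 0.23).

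**Figure D5:**
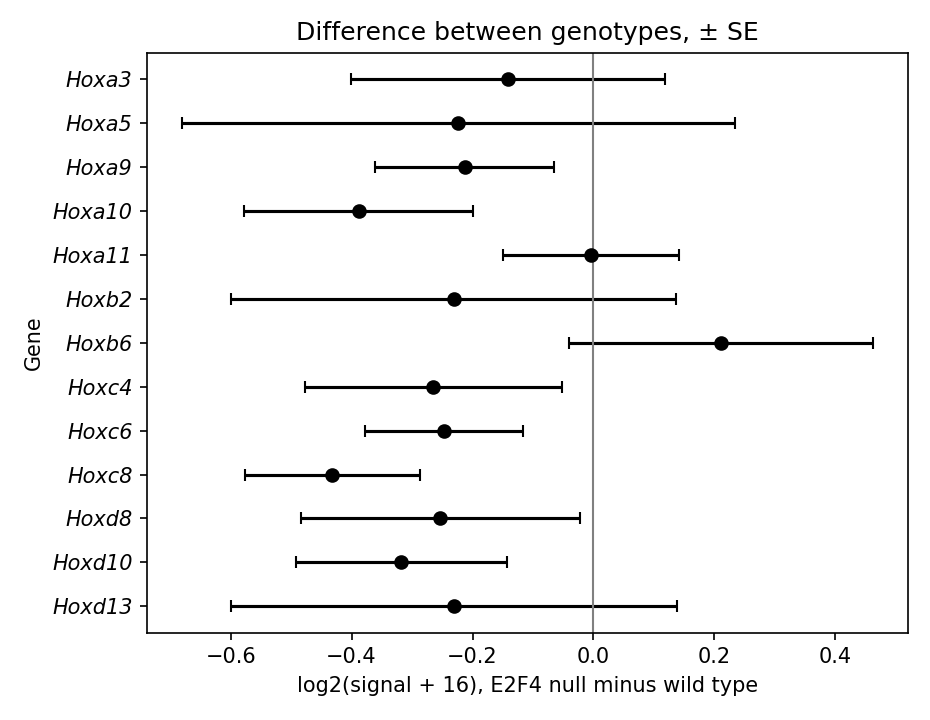
Difference between E2F4 null (n = 5 embryos) and wild type (n = 3 embryos) in log2(signal + 16) for the 13 HOX genes past the filter. Points are the differences, bars ± 1 SE, and the vertical line is 0. All points but that of Hoxb6 lie at or below 0, and the bars of Hoxa5, Hoxb2 and Hoxd13 are the widest.

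Where a gene had more than 1 probe set, the dimmer ones did not always share the sign. Hoxa9 differed by -0.21 and -0.19 at its 2 probe sets. Hoxa3 differed by -0.14 at the brighter and by 0.08 at the dimmer probe set, Hoxa4 by -0.19 and 0.05, and Hoxb4 by -0.22 and 0.09. The 3 probe sets of Hoxc6 gave -0.25, -0.05 and 0.09, and the brightest of them is of the type that may bind related transcripts, so the Hoxc6 signal may include those of other genes.

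Genes that act with or on the HOX clusters were read from the same fit, and 0 of them passed between genotypes. Of 8 tested TALE cofactor genes, 3 were below and 5 above 0, with a median of 0.02. Those with the smallest p were Pknox1 (PREP1), at -0.12 (248 ± 4.42 in wild type, 227 ± 8.14 in null embryos), and Meis3, at 0.18 (96.6 ± 1.87 and 111 ± 10.7), both with a limma adjusted p = 0.683. Of 21 Polycomb genes, 5 were below and 16 above 0, with a median of 0.08. Mtf2, a PRC2 accessory subunit, differed by 0.25 (650 ± 67.7 and 770 ± 31.1, adjusted p = 0.402) and Phc1, a PRC1 subunit, by 0.23 (256 ± 15.5 and 303 ± 16.8, adjusted p = 0.428). Of 10 trithorax and H3K27 demethylase genes, 5 were below and 5 above 0. Their smallest p values were those of Men1 at 0.15 (adjusted p = 0.707) and Setd1a at -0.16 (adjusted p = 0.714).

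A further list held genes of retinoid, CDX and GDF11 signals, which set HOX expression along the body axis, and regulators such as Egr2. Of its 12 tested genes, 8 were below and 4 above 0 (median -0.19). The CDX genes (at most 15.1 in any embryo) and Gdf11 (at most 46.0) were under the filter and were not tested. Rdh10, which makes retinaldehyde for retinoic acid synthesis, differed by -0.23 (adjusted p = 0.593), and Egr2, the hindbrain activator of Hoxb2 also known as Krox20, by -0.66 (642 ± 285 and 402 ± 159, adjusted p = 0.659). Of 7 limb and body wall genes, 6 were below 0, among them Tbx15 at -0.39 (725 ± 92.0 and 552 ± 66.2, adjusted p = 0.403) and Prrx2 at -0.47 (adjusted p = 0.507). Among 8 somite genes Meox1 stood out in size at 1.38 (57.4 ± 18.7 and 169 ± 23.4, limma adjusted p = 0.118), and Foxc2 differed by -0.21 (adjusted p = 0.725). Of 5 cranial mesenchyme genes, Lhx8 differed by 0.76 (adjusted p = 0.459) and Six2 by 0.26 (adjusted p = 0.685).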

How the data were processed

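Total RNA of 20 MEF cultures from 8 embryos was measured on 1-colour Affymetrix arrays. The deposited table gives linear signal intensities, and the submitters' processing notes name MAS5. Its version, its scaling target and any detection calls were not given in the sources used here. Every array had the same 2% trimmed mean, 500.2, so arrays were not rescaled, and a change shared by all genes would be hidden. Without detection calls, expressed genes were set apart by the signal of 61 measured of 69 listed genes of other tissues. The number of arrays and embryos limits the precision.

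Of 22690 probe sets, 64 were controls, 20393 had 1 gene symbol and 691 several. Gene identifiers were looked up in the RefSeq table of GRCm38.p6 to update symbols (20364 matched), and chromosomes are those of that table. Values were converted to log2(signal + 16) and averaged over the cultures of an embryo. Each gene was represented by its probe set of highest mean signal, and genes under the 40th percentile (a signal of 83.2) were dropped.

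Genotypes were compared on embryo means, and embryos within a genotype over cultures (F test), with limma 3.58.1 in R 4.3.3 (lmFit, eBayes with trend, two-sided, Benjamini-Hochberg adjusted over all genes tested, threshold 0.05). The fits were tested on simulated data. The embryo and culture numbers were read from the sample titles. Nothing says whether cultures were started independently, so p-values between embryos may measure technical spread only.

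The members, lists and tests were chosen with earlier results of these data known. Every HOX gene could be named; in other lists, up to 4 called genes or else the 2 with the smallest p. E2f4, Xist, Tmem223, Flt1, Pecam1, Cdh5, Cdh1, Epcam, Krt7, Myod1, Myog, Nes, Stmn2, Prrx1, Shox2, Tbx3, Msx1, Msx2 and Gdf11 are named outside that rule, after their values were seen. Alternatives covered the pseudocount, filter, normalization, probe sets, variance model, embryo as a random block, cultures 1 and 2 only, embryo number as a block, the background line, and each embryo left out.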

Additional observations from a re-analysis of the deposited data

Results flagged for a closer look

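Among the 5 null embryos, 2 of the 31 HOX genes had an embryo whose gap to the nearest other embryo exceeded the critical share of the whole range on the log2(signal + 16) scale (0.71 for 5 embryos); the groups of 3 wild type embryos were not examined. Chance flags about 1 in 20 groups. Hoxd8 in null embryo 1 lay at 66.4, with the next embryo at 128.7, a gap of 0.82 of the range. Both cultures of that embryo were low. Hoxb1 in null embryo 5 lay at 17.7, with the next on that scale at 9.20, a gap of 0.756 of the range. All of these Hoxb1 signals are under background, where no order can be read.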

How the results depend on the processing

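No HOX gene passed between genotypes under any alternative run, and the median HOX difference stayed between -0.30 and -0.14. The number of all genes called, 1 in the fit reported, was 0 with every probe set, 0 when only cultures 1 and 2 were used and 80 in a fit over cultures that took embryo as a random block. It ran from 0 to 11 with an embryo left out, the 11 being without wild type embryo 2. HOX genes below 0 numbered 22 of 31 without a filter and 1 of 1 with a filter at the 60th percentile, which kept Hoxa9 alone. With that filter 1 HOX gene was called between wild type embryos and 1 between null embryos, Hoxa9 in both. With an embryo left out, these counts ran from 5 to 8 and from 3 to 8. The count above background in every embryo was 16 by the mean over embryos and 15 without the 3 brightest silent genes, a choice made after seeing the data like the removal of the 2 arrays with outlying controls. Hoxa11 reversed under quantile normalization (0.0089) and median centring (0.0075). With an embryo left out, differences ran from -0.106 to 0.0762 for Hoxa11, from -0.534 to 0.0411 for Hoxa5, from -0.543 to 0.0789 for Hoxb2, from -0.0344 to 0.419 for Hoxb6 and from -0.561 to 0.162 for Hoxd13. The cause was not tested, except that the stricter filter tested fewer genes. Of the differences of single HOX genes, 236 kept their sign over the alternatives and 12 reversed. Of the F tests, 255 kept their side of the threshold, 5 newly passed and 28 were lost.

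The labels do not say whether same-numbered embryos of the genotypes were paired. Embryos numbered 1, 2 and 3 deviated together at r = 0.086, 0.639 and 0.423. The division seen for Hoxb2 set embryos 1 and 2 of both genotypes against wild type embryo 3 and null embryos 3, 4 and 5. Whether the embryo number stood for a shared litter or batch was not tested. With the embryo number as a replicate block, 0 genes were called, the median HOX difference was -0.23, and Hoxa11 stood at 0.105 and Hoxa5 at 0.0847.

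Signals near background limit the account of 18 members, and 3 wild type embryos limit the comparison of genotypes. A probe set cannot tell a HOX transcript from a related one it binds, and the labels do not give sex, litter or batch.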
